A study of Bos taurus with 12 samples.

Results

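Among the 27607 genes counted in peripheral white blood cells (PWBCs) of 12 beef heifers, 37 were strongly expressed in at least 1 animal and close to absent in at least 1 other. They were chosen by their counts per 1000000 (CPM), the reads of a gene as a share of all reads counted on genes in that library. A gene was taken if its highest CPM over the 12 libraries was 10 or more and its lowest was 0.25 or less. The rule leaves out BOLA-DQB and ENSBTAG00000047029; of these, BOLA-DQB would have passed both limits. A total of 9759 genes reached 10 CPM in at least 1 library. Apart from the genes left out by name, the choice rested on the spread over all libraries and used no fertility label. The levels, the on and off states and the shared patterns below are therefore a description. Only the comparison of fertile with subfertile heifers carries a test.

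Blood leukocytes are a mixture of lymphocytes, monocytes and granulocytes, and PWBC preparations also carry platelets, so a transcript confined to 1 cell type can differ between animals with the share of that cell. Major histocompatibility complex (MHC) class II molecules present peptides to helper T cells, and the DQ genes of cattle are highly polymorphic and differ between haplotypes in which copies are present. Platelets hold RNA inherited from megakaryocytes, including the integrin chains ITGA2B and ITGB3 and the platelet tubulin TUBB1.

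The heifers were Simmental-Angus crosses in their first breeding season, with 1 library per heifer. All received the same fixed-time artificial insemination (AI) protocol, with gonadotropin-releasing hormone, an intravaginal progesterone device and prostaglandin F2α, and blood was drawn from the jugular vein 2 days before AI. The 6 fertile heifers (labelled Pregnant; LM1244, LM1247, LM1262, LM1286, LM1298 and LM1330) conceived to that AI, and the 6 subfertile heifers (labelled Open; LM1246, LM1251, LM1259, LM1265, LM1283 and LM1313) did not conceive to AI or to the natural service that followed. Groups were assigned after the outcome was known, and the reproductive tract score was 4 in every heifer except LM1247 and LM1246, which scored 5. Library totals ran from 14010736 to 21278761 reads on genes, so that the lower limit of the rule was worth 3.5 to 5.32 reads and the upper limit 140.1 to 212.8 reads. A count of 0 allows up to 3 reads, or 0.141 to 0.214 CPM depending on the library; this limit covers counting error only. Markers of B cells (CD79A), T cells (CD3E) and NK cells (PRF1) were present in all 12 libraries, and the neutrophil marker CXCR2 ran from 0 to 7.3 CPM. LM1330 stood apart from the other libraries: its summed level of 4 platelet markers was 9670 CPM against 584 to 2900 CPM elsewhere, and the main values that rest on it are also given without it.

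Only 7 of the 37 members have a gene name in the sources used here. They are ADAMDEC1, a secreted metalloprotease of macrophages and dendritic cells; AXL, a receptor tyrosine kinase involved in the clearance of dying cells; F2RL3, the thrombin receptor PAR4 of platelets; PLXNB3, a semaphorin receptor; OSBP2, an oxysterol-binding protein; VSTM4, a transmembrane protein with an immunoglobulin-type domain; and LRATD1. The other 30 are given by their Ensembl identifier. CPM is not scaled by transcript length, so levels are compared between libraries for the same gene and not between genes.

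Each library was called high for a member at 10 CPM or more, off at 0.25 CPM or less and intermediate between these limits. Of the 444 member and library values, 115 (25.9%) were high, 118 (26.6%) were off and 211 (47.5%) were intermediate, and 72 were 0 counts. Members were therefore seldom strict switches: 5 had no intermediate library (ENSBTAG00000038128, ENSBTAG00000036061, ENSBTAG00000054128, ENSBTAG00000053103 and ENSBTAG00000038064) and 4 had 1. A total of 16 members were high in 1 library, 11 in 2 to 4 libraries and 10 in 5 or more. Off states were as uneven, with 16 members off in 1 library, 11 in 2 or 3 and 10 in 4 or more. At least 1 library held 0 counts for 20 of the 37.

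The widest break between neighbouring libraries was 10-fold or more, on CPM + 0.25, in 15 members. It set 1 library above the other 11 in 8 members and 11 libraries above 1 in another 8. High states were spread over all animals, from 6 members in LM1251 to 13 in LM1265, and off states ran from 6 members in LM1265 to 14 in LM1330. LM1330 combined the most off states with the highest value of 9 members, more than any other library.

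**Figure D1:**
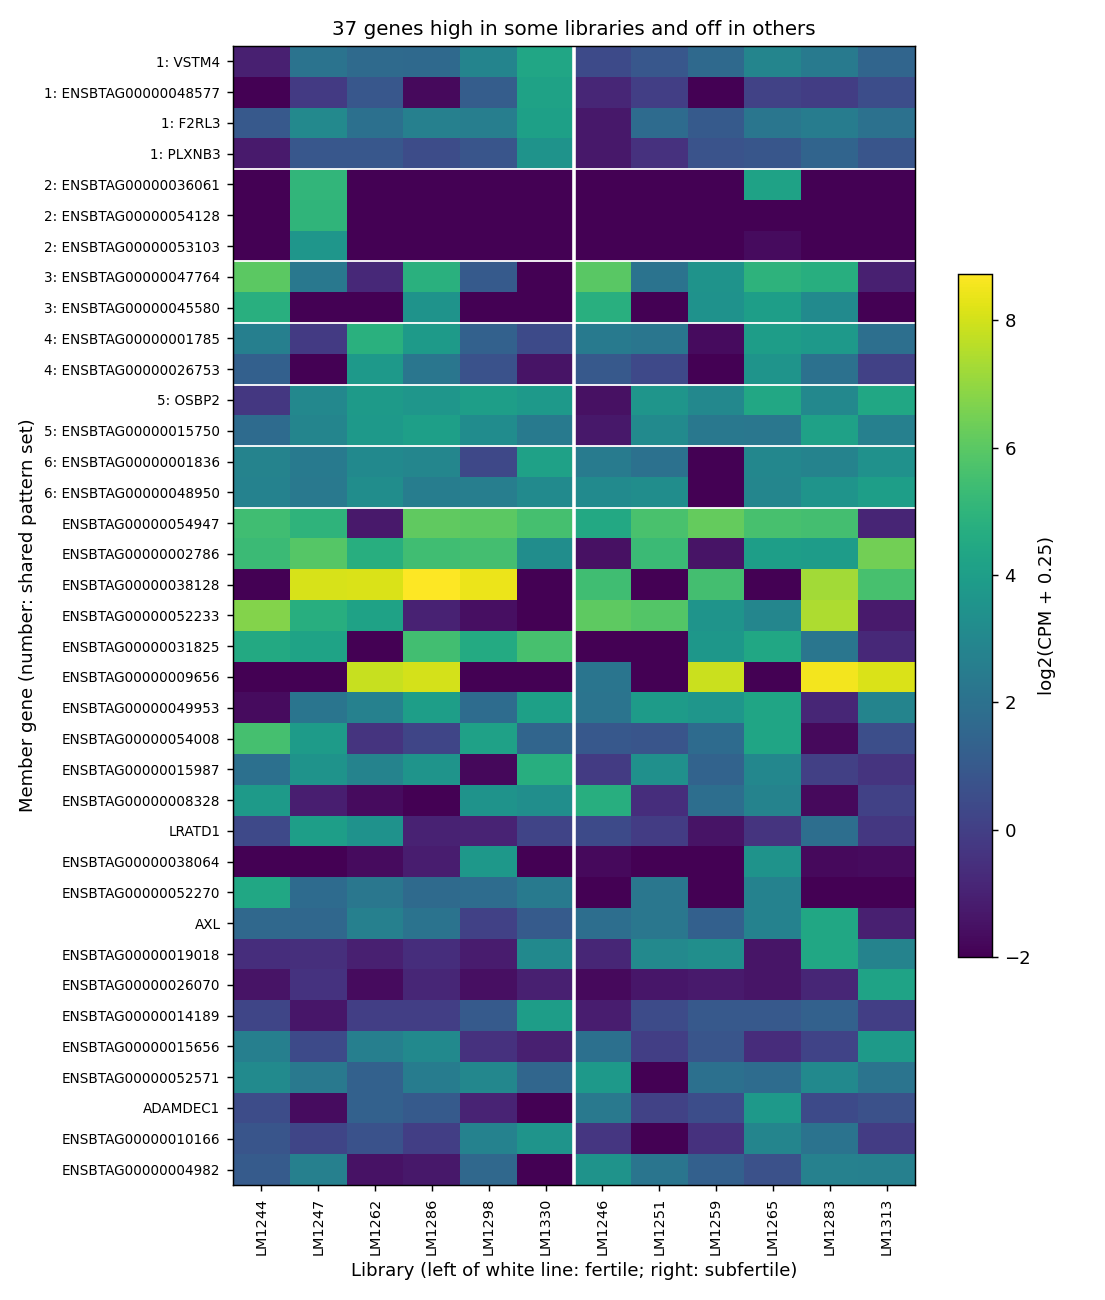
Level of the 37 members (y axis) in each of the 12 libraries (x axis, fertile left of the white line), as log2(CPM + 0.25) in color. Numbers before the names mark the 6 sets of members with a shared pattern, and the members without a number were alone; ENSBTAG00000036061, ENSBTAG00000054128 and ENSBTAG00000053103 are bright in LM1247 and dark in nearly all other libraries, and no block of members follows the white line.

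ENSBTAG00000038128 reached the highest CPM of all members and had the widest break between neighbouring libraries on CPM + 0.25 (175-fold, from 0 to 43.4 CPM). In fertile heifers it stood at 267, 278, 424 and 341 CPM in LM1247, LM1262, LM1286 and LM1298 and at 0 counts in LM1244 and LM1330. In subfertile heifers it stood at 43.4, 46.2, 152 and 48 CPM in LM1246, LM1259, LM1283 and LM1313 and at 0 counts in LM1251 and LM1265. Each group therefore held 4 libraries with the transcript and 2 without, and among the libraries with it the 4 fertile values all lay above the 4 subfertile values. The lowest of the 8 high libraries was at least 927-fold higher than the 3-count limit taken over the 4 libraries at 0 together. The KEGG gene sets used in the study place this identifier among the genes of antigen processing and presentation. Over the whole groups, its log2FC (subfertile minus fertile) was -2.16 (SE 1.42, edgeR P = 0.151, adjusted P = 0.9998; two-sided exact permutation P = 0.558).

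The gene most like it over the 12 libraries was BOLA-DQB, the MHC class II DQ beta chain (Pearson r of log2(CPM + 0.25) 0.88, and 0.83 without the 2 farthest libraries). BOLA-DQB stood at 317, 321, 409 and 403 CPM in the same 4 fertile libraries and at 0.471 CPM or less in the same 4 libraries in which ENSBTAG00000038128 was at 0. In the 4 subfertile libraries with ENSBTAG00000038128, BOLA-DQB was between 1.45 and 22.8 CPM. Both genes were thus at 10 CPM or more together in 6 heifers, the 4 fertile ones and the subfertile LM1246 and LM1259, and low together in 4 heifers of both groups. The next genes in likeness were ENSBTAG00000012451 (r 0.87, and 0.94 without the 2 farthest) and ENSBTAG00000019183 (r 0.85, and 0.82), which varied only between 305 and 474 CPM and between 11.7 and 22.3 CPM. BOLA-DOA, the other gene of the MHC class II list with a name here, was present in every library at 149 to 296 CPM.

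ENSBTAG00000009656 was similarly divided, at 229 and 262 CPM in the fertile LM1262 and LM1286 and at 233, 367 and 282 CPM in the subfertile LM1259, LM1283 and LM1313. It stood at 4.27 CPM in LM1246 and at 0 counts in the other 6 libraries. All 6 libraries that held its reads were among the 8 that held ENSBTAG00000038128, and the exceptions in the other direction were LM1247 and LM1298. Its most alike genes, ENSBTAG00000009839, ENSBTAG00000051008 and ENSBTAG00000045762 (r 0.89 to 0.9), were present in every library, from 33.3 CPM upwards. The groups overlapped throughout, with a log2FC of 0.85 (SE 1.76, edgeR P = 0.634; exact permutation P = 0.307).

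**Figure D2:**
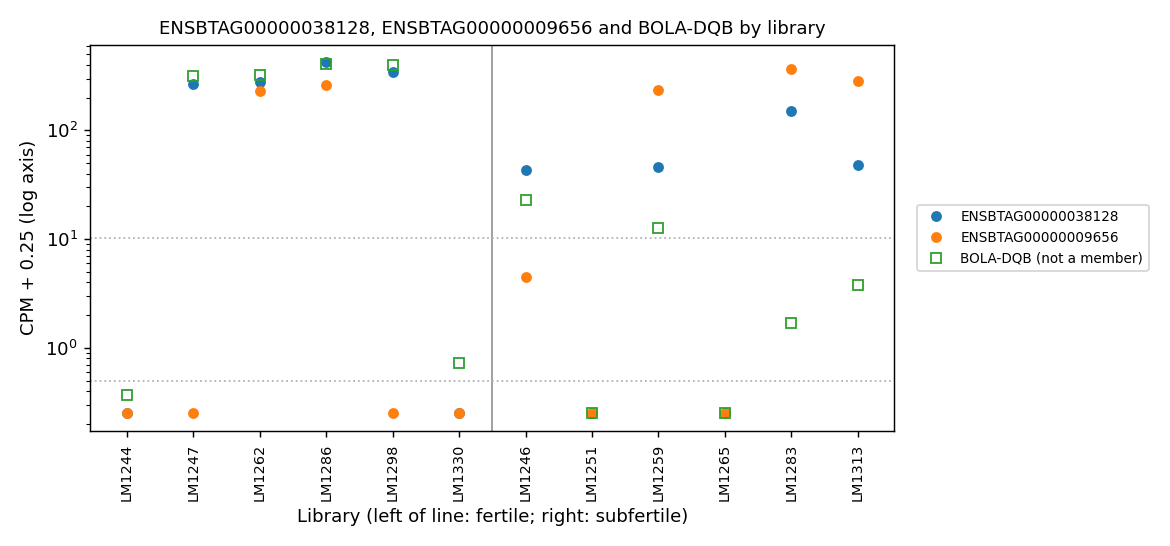
CPM + 0.25 on a log axis (y) of ENSBTAG00000038128, ENSBTAG00000009656 and BOLA-DQB in each library (x, fertile left of the line); dotted lines mark 10 and 0.25 CPM, and points at the same value overlap. LM1244, LM1330, LM1251 and LM1265 are low for all 3 genes, and only LM1262 and LM1286 are above 200 CPM for all 3.

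The next members by highest CPM each had their own set of libraries. ENSBTAG00000052233 was high in 3 fertile and 4 subfertile libraries, with 0, 9.02 and 108 CPM (lowest, median and highest) in fertile and 0.172, 34.3 and 169 CPM in subfertile heifers. It was off in LM1298 (0.094), LM1330 (0) and LM1313 (0.172) and nearly so in LM1286 (0.261), with a log2FC of 1.18 that did not pass the test (SE 1.32, edgeR P = 0.387; exact permutation P = 0.294). HIP1 was among the 3 genes most like it (r 0.87).

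Some members were present in nearly every heifer and near absent in 1 or 2. ENSBTAG00000002786 was off in LM1246 (0.103 CPM) and LM1259 (0.118 CPM), both subfertile, with 9.25, 41.3 and 59.2 CPM in fertile and 0.103, 15.5 and 88.1 CPM in subfertile heifers (lowest, median and highest). ENSBTAG00000054947 was at 0.17 CPM in LM1262 and 0.287 CPM in LM1313, 1 heifer of each group, with 0.17, 45.5 and 68.8 CPM in fertile and 0.287, 47.2 and 72.4 CPM in subfertile heifers. These 2 members were low in different heifers. Once the 2 farthest libraries were left out, the r of the 3 genes most like ENSBTAG00000002786 (0.88 each) came to 0.13, 0.11 and 0.51, and that of the 3 most like ENSBTAG00000054947 (0.92, 0.89 and 0.88) to 0.15, 0.33 and 0.75.

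ENSBTAG00000031825 was at 0 counts in LM1262, LM1246 and LM1251 and at 0.345 CPM in LM1313. Its fertile libraries had 0, 23 and 48.4 CPM and its subfertile libraries 0, 2.35 and 20.9 CPM (lowest, median and highest). The fertile median was above every subfertile value, but LM1262 lay at the bottom (log2FC -2, SE 1.14, edgeR P = 0.101; exact permutation P = 0.0996), and the gene was called lower in subfertile heifers without LM1262 or without LM1265. ENSBTAG00000054008 had 0.509, 8.58 and 46.6 CPM in fertile and 0.0518, 1.6 and 19.4 CPM in subfertile heifers, high in LM1244, LM1247, LM1298 and LM1265 (log2FC -1.5, SE 1.08, edgeR P = 0.185; exact permutation P = 0.299). In these 4 libraries ENSBTAG00000009656 was at 0 counts.

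Shared patterns were sought with the Pearson correlation of log2(CPM + 0.25) over the 12 libraries and average linkage at an r of 0.7. This placed 15 members in 6 sets and left 22 alone. Of the 666 pairs of members, 16 (2.4%) had an r of 0.7 or more, beside 5.62% of the pairs of all genes tested, and 3 (0.45%) had an r of -0.7 or less, beside 1.5%. All pairs were compared over the same 12 libraries, which differ in depth and cell makeup, so these correlations are a description.

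The largest set was VSTM4, PLXNB3, F2RL3 and ENSBTAG00000048577 (r 0.59 to 0.91), each high in LM1330 only. Without LM1330 the r was 0.87 for VSTM4 with PLXNB3, 0.76 for PLXNB3 with F2RL3 and 0.62 for VSTM4 with F2RL3, but fell from 0.76 to 0.47 for PLXNB3 with ENSBTAG00000048577 and from 0.75 to 0.57 for VSTM4 with ENSBTAG00000048577. In LM1330 they stood at 19.9, 11, 16.7 and 17.7 CPM, against highest values elsewhere of 7.11, 2.49, 8.14 and 1.97 CPM. ENSBTAG00000010166 (11.4 CPM) and ENSBTAG00000014189 (15.4 CPM) were also high in LM1330 only, which makes 6 members with this library as their sole high one. The low end was shared in part. F2RL3 and PLXNB3 were off in LM1246, at 0.155 CPM each, and VSTM4 (0.233), PLXNB3 (0.174) and ENSBTAG00000048577 (0) were off in LM1244. ENSBTAG00000048577 was also off in LM1286 (0.0522 CPM) and LM1259 (0), where the other 3 were not.

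VSTM4 had 0.233, 3.5 and 19.9 CPM in fertile and 1.08, 2.77 and 7.11 CPM in subfertile heifers (lowest, median and highest). F2RL3 had 1.74, 5.94 and 16.7 CPM in fertile and 0.155, 3.44 and 5.39 CPM in subfertile heifers. PLXNB3 had 0.174, 1.6 and 11 CPM in fertile and 0.155, 1.49 and 2.49 CPM in subfertile heifers. LM1330 was the highest library for all 3 genes, and the other 5 fertile libraries overlapped the subfertile ones.

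Platelet markers moved with this set. TUBB1 was 7510 CPM in LM1330 against 386 to 2310 CPM elsewhere, ITGB3 1880 against 117 to 538, ITGA2B 241 against 66.8 to 113, and GP9 30.5 against 0.309 to 7.99. These are 4 of the 7 genes of the platelet list; the other 3 have no name in the sources used here, and none of the 4 was at 0 in any library. LM1244 and LM1246, where 3 of the 4 members and 2 of the 4 were off, held the 2 lowest values of each of these markers. Over the 12 libraries the r of VSTM4, PLXNB3 and F2RL3 with the 4 markers ran from 0.77 to 0.94. Without LM1330 it ran from 0.57 (PLXNB3 with ITGA2B) to 0.92. Among the closest pairs over the 12 libraries, the r was 0.93 for VSTM4 with TUBB1, 0.94 for PLXNB3 with ITGB3 and 0.94 for F2RL3 with GP9. Without LM1330 these were 0.89, 0.88 and 0.92, and for ENSBTAG00000048577 with ITGB3 the r went from 0.86 to 0.68. CCR3, a chemokine receptor of eosinophils and basophils, was also highest in LM1330 (202 CPM against 12 to 48), and its r with PLXNB3 was 0.94, or 0.87 without LM1330. The part of platelets or of other cells in these members' levels was not tested, and in bulk RNA more cells of a type and more RNA per cell cannot be told apart.

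**Figure D3:**
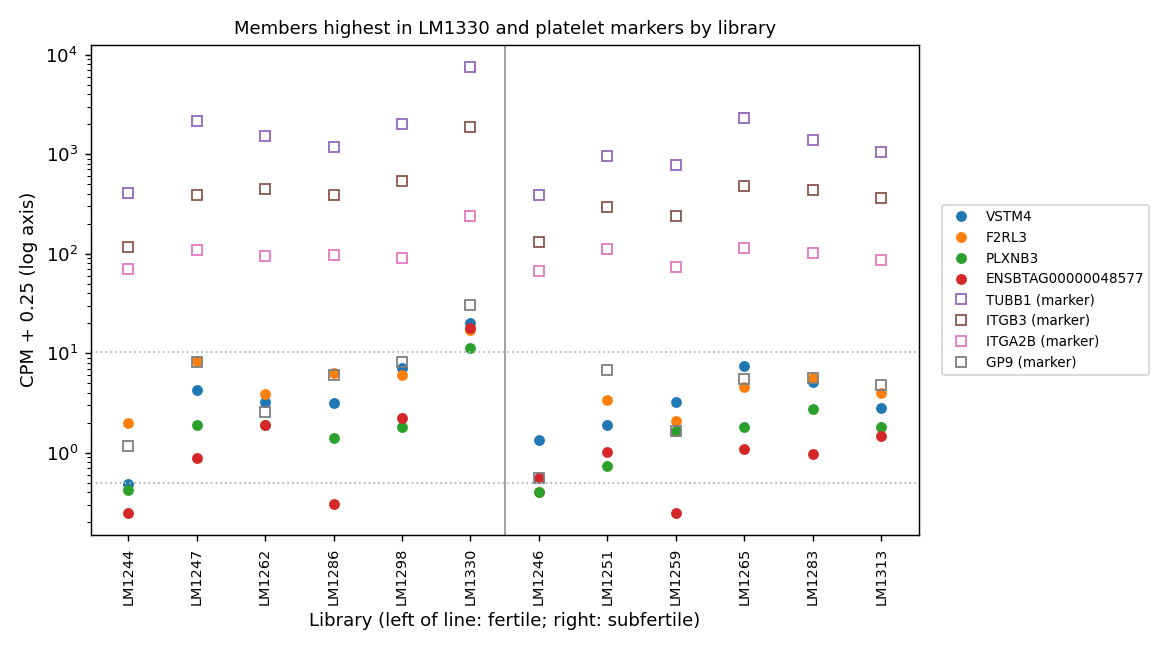
CPM + 0.25 on a log axis (y) of 4 members (filled points) and 4 platelet markers (open squares) in each library (x, fertile left of the line); dotted lines mark 10 and 0.25 CPM, and points at the same value overlap. All 8 genes are highest in LM1330, and the members reach their lowest values in LM1244, LM1246 or LM1259.

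A different heifer, LM1247, carried the second set. ENSBTAG00000054128 had 453 reads (32.3 CPM) in LM1247 and none in the other 11 libraries, at least 2100-fold higher than the 3-count limit taken over those 11. ENSBTAG00000053103 had 173 reads (12.3 CPM) in LM1247 and 1 read elsewhere, in LM1265. ENSBTAG00000036061 had 464 reads (33.1 CPM) in LM1247 and 273 reads (17.8 CPM) in LM1265, and none in the other 10, at least 1070-fold higher in LM1265 than the limit over those 10. These 3 transcripts were thus confined to 1 fertile and, for ENSBTAG00000036061, 1 subfertile heifer, and all 3 fell below the count filter of the test. ENSBTAG00000038064 also had its reads in 2 heifers, with 277 reads (13 CPM) in LM1298 and 171 reads (11.2 CPM) in LM1265 and 8 reads in the other 10 libraries together. ENSBTAG00000026070 was high in LM1313 only (18.6 CPM), at 0.5 CPM or less elsewhere.

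ENSBTAG00000001785 and ENSBTAG00000026753 had the highest r of the pairs whose levels were graded over the libraries (0.95, also without the 2 farthest). ENSBTAG00000001785 had 0.642, 4.09 and 28 CPM in fertile and 0.0592, 4.67 and 15.3 CPM in subfertile heifers, and ENSBTAG00000026753 had 0, 1.79 and 13.6 CPM and 0, 1.39 and 11.4 CPM. Both were highest in LM1262 and LM1265 and lowest in LM1259 or LM1247. CXCR2, the interleukin-8 receptor of neutrophils, also had its highest values in LM1262 (7.3 CPM) and LM1265 (6.98 CPM), with an r of 0.94 with ENSBTAG00000026753 and 0.88 with ENSBTAG00000001785. For the neutrophil marker S100A9 the r was lower, at 0.62 and 0.6. The neutrophil list, of which CXCR2 and S100A9 have a name here, summed to 21.2 to 145 CPM in fertile and 56.3 to 192 CPM in subfertile heifers, and CXCR2 was at 0 in LM1330. The part of neutrophils in these levels was not tested.

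ENSBTAG00000045580 and ENSBTAG00000047764 also moved together (r 0.89, and 0.84 without the 2 farthest). ENSBTAG00000045580 stood between 8.5 and 27.2 CPM in LM1244, LM1286, LM1246, LM1259, LM1265 and LM1283 and at 0 counts in the other 6. ENSBTAG00000047764 was at 10 CPM or more in the same 6 libraries (11.2 to 64.1 CPM) and at 0 to 4.71 CPM in the other 6, with 0, 3.27 and 64.1 CPM in fertile and 0.23, 18.7 and 63.7 CPM in subfertile heifers. The 2 genes thus divided the heifers in the same way, with 2 fertile and 4 subfertile animals on the high side (two-sided Fisher's exact P = 0.567 for ENSBTAG00000045580 above 1 CPM). Their log2FC was 0.79 (SE 1.4, edgeR P = 0.584, exact permutation P = 0.47) and 0.55 (SE 1.15, edgeR P = 0.638, exact permutation P = 0.4). VCAN, a proteoglycan of monocytes, had an r of 0.85 with ENSBTAG00000047764 and ranged from 3.18 to 57.7 CPM.

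**Figure D4:**
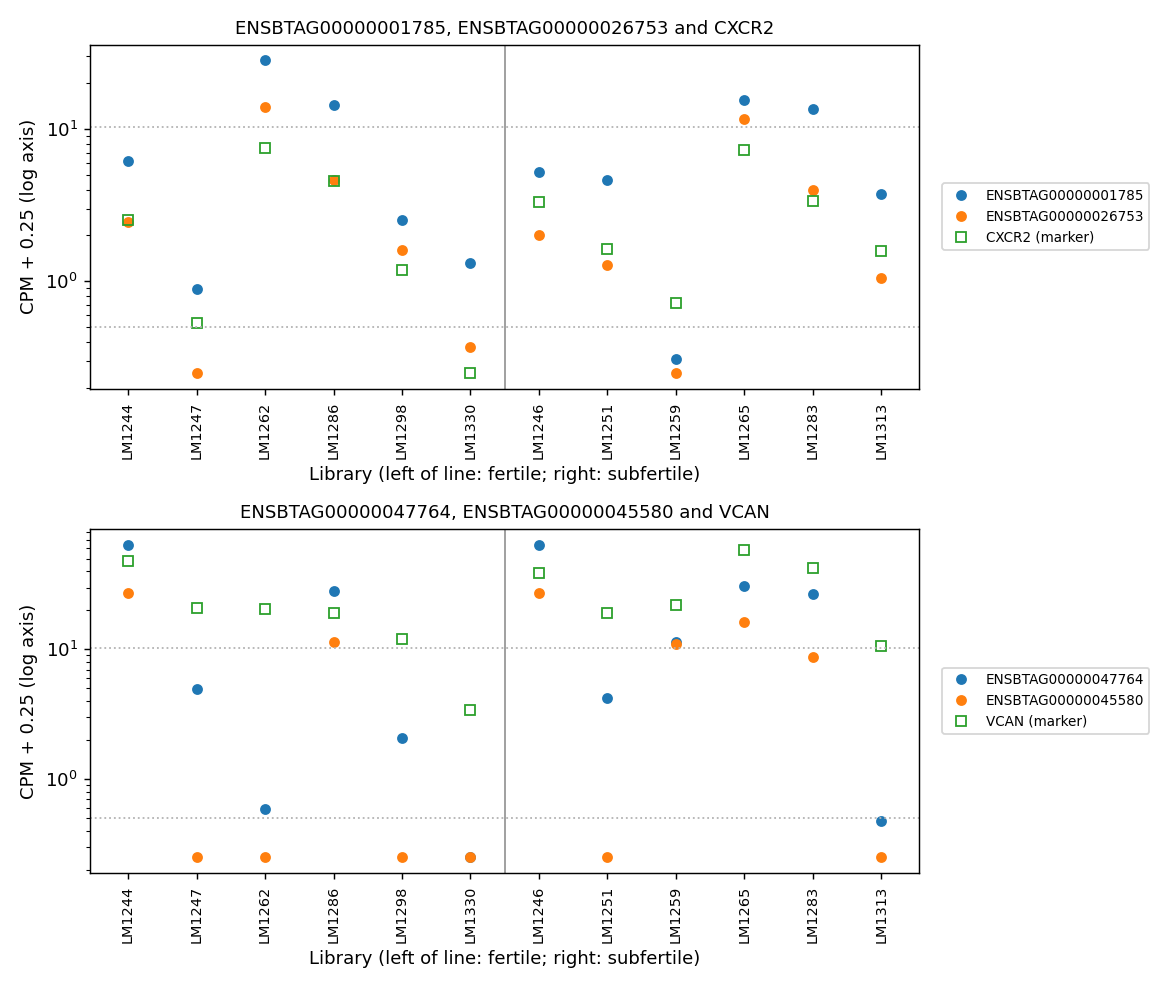
CPM + 0.25 on a log axis (y) of 2 pairs of members (filled points), each with 1 marker gene (open squares), by library (x, fertile left of the line); dotted lines mark 10 and 0.25 CPM, and points at the same value overlap. The first pair and CXCR2 peak in LM1262 and LM1265, and the second pair separates the same 6 libraries from the other 6.

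In the last 2 sets both members were off in the same single library. ENSBTAG00000001836 and ENSBTAG00000048950 (r 0.86) were both at 0 counts in LM1259 only, and their r was 0.27 without LM1259 and LM1298. OSBP2 and ENSBTAG00000015750 (r 0.77) were both off in LM1246 only, at 0.103 and 0.155 CPM, and their r was 0.48 without LM1246 and LM1283. In the other 11 heifers OSBP2 ran from 0.581 to 21.6 CPM and ENSBTAG00000015750 from 3.14 to 17.6 CPM. With F2RL3 the r was 0.77 for OSBP2 and 0.75 for ENSBTAG00000015750, or 0.03 and 0.25 without the 2 farthest libraries. With the 4 platelet markers it was 0.51 to 0.75 for OSBP2 and 0.31 to 0.6 for ENSBTAG00000015750. Without LM1330 these were 0.73 to 0.9 and 0.66 to 0.78. The part of platelets in these levels was not tested. Inverse patterns were seen for ENSBTAG00000009656 with ENSBTAG00000054008 (r -0.75), ENSBTAG00000008328 with ENSBTAG00000015750 (r -0.75) and ENSBTAG00000047764 with ENSBTAG00000048577 (r -0.78).

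The members not yet described stood alone. ENSBTAG00000019018 had values on both sides of a wide gap, at 20.6 CPM in LM1283, between 6.72 and 9.53 CPM in LM1330, LM1251, LM1259 and LM1313, and at 0.428 CPM or less in the other 7, so that 1 fertile and 4 subfertile heifers were on the upper side (two-sided Fisher's exact P = 0.242 for libraries above 1 CPM). ENSBTAG00000008328 was high in LM1244, LM1298 and LM1246 and off in LM1247, LM1262, LM1286 and LM1283. ENSBTAG00000015987 was high in LM1247, LM1286, LM1330 and LM1251 and off in LM1298 (0.047 CPM). Each of these 3 members was above 1 CPM in heifers of both groups. ENSBTAG00000049953 was high in 2 fertile and 3 subfertile libraries and off in LM1244 (0.0581 CPM). ENSBTAG00000052571 and ENSBTAG00000010166 were both at 0 counts in LM1251 only, the first with its highest value in LM1246 (13.6 CPM). ENSBTAG00000015656 had 0.236, 3.51 and 8.2 CPM in fertile and 0.392, 1.21 and 14.2 CPM in subfertile heifers, high in LM1313 only. ENSBTAG00000014189, high in LM1330, was off in LM1247 (0.143 CPM) and LM1246 (0.206 CPM).

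Whether these patterns followed fertility was tested with edgeR on all genes that passed the count filter, 13012 genes, among them 31 of the 37 members. A gene was called at the thresholds of the study, an unadjusted P of 0.05 or less and an absolute log2 fold change (log2FC, subfertile minus fertile) of 0.5 or more. Among the 31 members, 2 (6.45%) were called, beside 1.40% of all genes. ADAMDEC1 was called higher in subfertile heifers, as were 0.661% of all genes, and ENSBTAG00000048577 lower, as were 0.738%. After Benjamini-Hochberg adjustment of the edgeR P over the 13012 genes, 0 members and 0.00% of all genes passed 0.05, and the smallest adjusted P among members was 0.9998; 341 genes had an unadjusted P of 0.05 or less. DESeq2 called 3 members (ADAMDEC1, LRATD1 and F2RL3), beside 1.77% of all genes; the edgeR log2FC of F2RL3 was -1.15, and -0.68 without LM1330 and -1.36, called, without LM1244. The DESeq2 fit's smallest adjusted P over all genes was 0.266. The members' fold changes were large and so were their errors. The median absolute log2FC was 0.84 in the members against 0.11 in all genes, and the median SE 0.91 against 0.17. An absolute log2FC of 0.5 or more was found in 20 members (64.5%), beside 7.40% of all genes. The rule takes genes with a wide range over these same libraries, so larger absolute fold changes and errors follow from the choice of members. A total of 19 of the 31 had a negative log2FC, at any P, beside 48.2% of all genes.

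ADAMDEC1 had 0, 0.722 and 2.26 CPM in fertile and 0.823, 1.25 and 13.5 CPM in subfertile heifers (lowest, median and highest). Its high value came from LM1265 and its next from LM1246 (4.74 CPM), while LM1330 was at 0 counts and LM1247 at 0.0714 CPM. The groups overlapped between 0.823 and 2.26 CPM. The log2FC was 2.05 (SE 0.92, edgeR P = 0.0422, adjusted P = 0.9998), the exact permutation P was 0.0823, and without LM1265 the log2FC was 0.91 and the call was lost. The call was also lost, at a log2FC of 1.79 to 2.09, without LM1244, LM1247, LM1298, LM1330 or LM1246. CXCR2 moved with ADAMDEC1 (r 0.84, and 0.78 without LM1330). S100A9, the other neutrophil gene with a name here, did so less (r 0.55, and 0.33 without LM1330).

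ENSBTAG00000048577 had 0, 1.14 and 17.7 CPM in fertile and 0, 0.74 and 1.21 CPM in subfertile heifers. All libraries but LM1330 were at 1.97 CPM or less. The log2FC was -2.53 (SE 1.16, edgeR P = 0.0466, adjusted P = 0.9998), with an exact permutation P of 0.509. Without LM1330, whose platelet markers were the highest, the log2FC was -0.47 and the call was lost.

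Each member was also compared with a two-sided exact permutation test of mean log2(CPM + 0.25) over every way of splitting the heifers 6 against 6, which gives a single library less weight and whose smallest possible P is 0.00216. An exact P of 0.05 or less was found for 1 of the 37 members (2.7%), beside 2.24% of the 13018 genes compared in this way (the genes tested and the members under the count filter). This was ENSBTAG00000052270. It had 2.98, 3.83 and 21 CPM in fertile heifers, all 6 of which were above 1 CPM. Among subfertile heifers it was at 0 counts in LM1246, LM1259, LM1283 and LM1313 and at 4.53 and 6.53 CPM in LM1251 and LM1265, within the fertile range. Its exact permutation P was 0.0433 (adjusted P = 1), the two-sided Fisher's exact P for 6 of 6 against 2 of 6 libraries above 1 CPM was 0.0606, and edgeR gave a log2FC of -1.74 (SE 1.14, P = 0.147).

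ENSBTAG00000004982 pointed the other way, off in 3 fertile libraries (LM1262, LM1286 and LM1330, at 0.113, 0.157 and 0 CPM) and in no subfertile one. Its fertile libraries had 0, 1.01 and 6.14 CPM and its subfertile libraries 1.31, 5.23 and 11.1 CPM, with an exact permutation P of 0.0519 and a log2FC of 1.46 (SE 0.87, edgeR P = 0.116), which was 2.36 and called without LM1247. LRATD1 was high in LM1247 and LM1262 only (15.9 and 10.7 CPM) and at 3.47 CPM or less in the other 10 (log2FC -2.15, SE 1.04, edgeR P = 0.057, exact permutation P = 0.331), and its log2FC was -1.27 without LM1247; it was called in 5 of the 12 fits without 1 library (LM1244, LM1286, LM1298, LM1330 or LM1283), at -2.37 to -3.1. AXL was high in LM1283 (20.6 CPM) and off in LM1313 (0.23 CPM), both subfertile (log2FC 1.11, SE 0.74, edgeR P = 0.155, exact permutation P = 0.656). Without LM1313 it was called higher in subfertile heifers. For none of the 37 members were the 2 groups without overlap, beside 0.0615% of all genes.

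**Figure D5:**
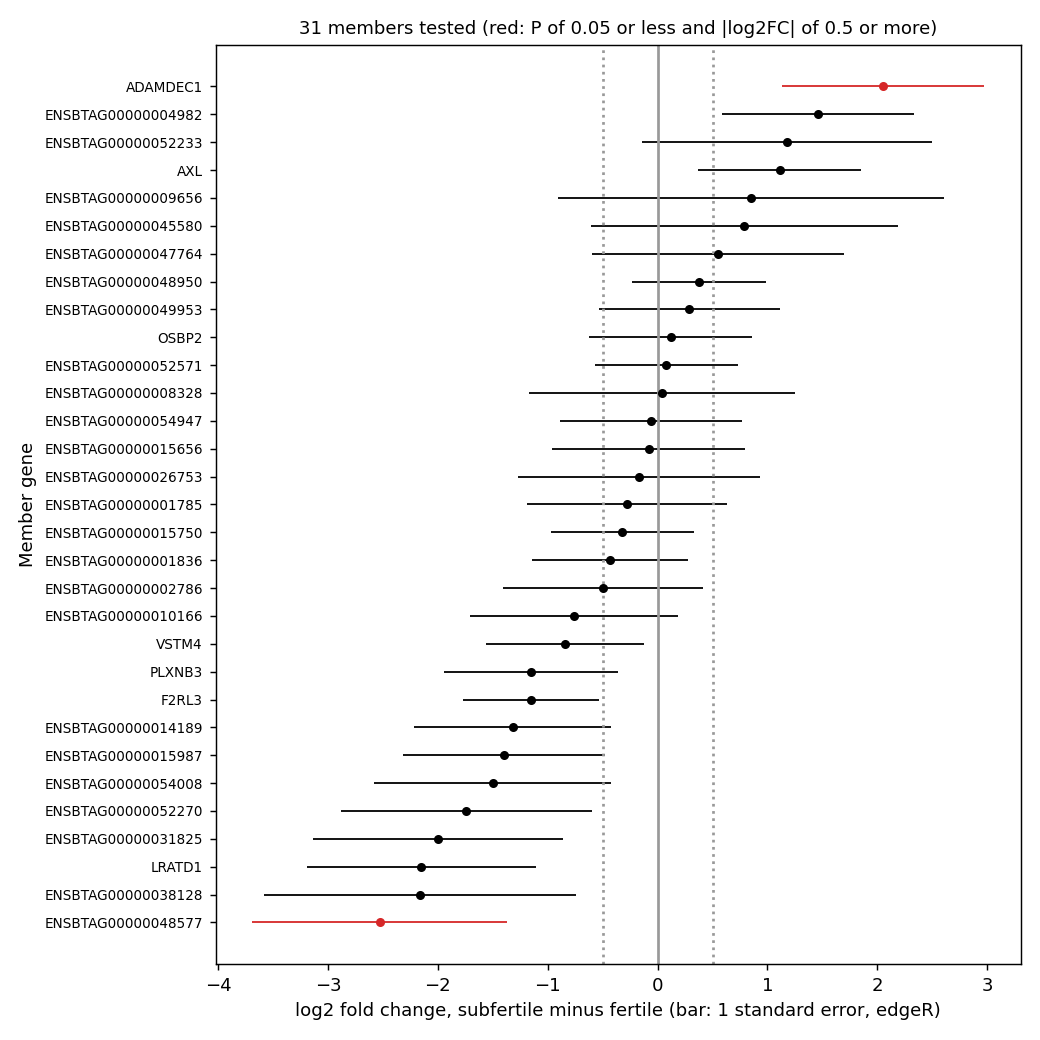
log2FC of subfertile against fertile heifers (x axis; points, with bars of 1 SE from edgeR) for the 31 members tested (y axis). The called members ADAMDEC1 and ENSBTAG00000048577 are in red at either end, and dotted lines mark the limit of 0.5.

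The limits of the rule cut through a continuous range. PLXNB3 (highest 11 CPM) and ENSBTAG00000004982 (11.1) lay just inside the upper limit, and RAP1GAP (9.98) and ACHE (9.84) just outside it. VSTM4 (lowest 0.233 CPM) and ENSBTAG00000015656 (0.236) lay just inside the lower limit, and RAMP3 (0.258) and ENSBTAG00000003923 (0.295) just outside it.

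None of the 7 named members was in the lists of cell type markers or of MHC class I, MHC class II, NK and innate-like receptor or sex-linked genes; for the 30 members without a name this could not be read from the lists, most of whose genes have no identifier in the sources used here. Names came from the study's supplementary tables, which include the genes it found to differ between these same heifers. A called gene was therefore more likely to have a name, and the counts below cannot be read against the share of all genes. Of the genes of these lists that have a name here, called by the same edgeR thresholds (1.40% of all genes), 1 of 2 MHC class II genes (BOLA-DQB), 1 of 2 B cell genes (PAX5), 1 of 2 NK cell genes (GZMB) and the 1 erythroid gene (EPB42) were lower in subfertile heifers. Called higher were 1 of 2 plasma cell genes (JCHAIN) and 2 of 5 NK and innate-like receptor genes (KLRG1 and KLRA1). None was called of 2 T cell, 2 monocyte, 2 neutrophil, 1 eosinophil and basophil, 4 platelet and 3 MHC class I genes, and the gamma-delta T cell, neutrophil precursor, dendritic and sex-linked lists had no named gene.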

How the data were processed

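The members and gene lists were chosen with earlier results of these data known. The authors mapped poly(A)-selected, strand-specific libraries with STAR 2.7.5 to ARS-UCD1.3 and deposited raw counts per Ensembl gene for all 12 libraries, unfiltered; STAR's gene counting takes uniquely mapped reads, and the strand column taken is not stated, so genes with near-identical copies or an overlapping antisense gene are uncertain. CPM here used each library's total on genes. Genes kept by filterByExpr (fertility groups, minimum count 10, 70%) were scaled by TMM and compared with edgeR 4.0.16 (R 4.3.3; quasi-likelihood test), and P was adjusted by Benjamini-Hochberg across every gene kept. With 6 heifers per group the filter needs a gene above its count limit in 6 libraries of either group, so 6 members were not tested. The 70% setting acts only on larger groups and had no effect in this fit. In simulated data for this comparison (13012 genes, 200 changed by a log2 of 2), an adjusted P limit of 0.05 recovered 177 changed genes (88.5%) and called 7 unchanged ones, and 588 of the 12812 unchanged genes (4.59%) had an unadjusted P of 0.05 or less, the limit used for the calls here. The changed genes were drawn from all genes, whose median SE was 0.17 in the real data against 0.91 in the members. Recovery among the members was not measured. Exact permutation tests ran over all 924 label assignments with numpy 2.4.6, and Fisher's exact tests used scipy 1.17.1.

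Values in every library, or the lowest, median and highest per group, were given for the members called, the 2 highest in each shared set of 3 or more, the 10 with the highest CPM and those nearest each limit; other members were named after their values were seen. For the 5 highest members the 3 most alike genes tested were taken. Gene names came from the study's supplementary tables (2918 names), and CD163, CR2, CSF3R, IRF2 and SRSF3 were not analysed here. Alternatives were DESeq2 1.42.0, other size factors, filters, limits, correlation measures and pseudocounts, the reproductive tract score in the model, and each library left out. Correlations without LM1330 were added after seeing the data.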

Additional observations from a re-analysis of the deposited data

Results flagged for a closer look

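In the 16 members chosen for fuller values, each group of 6 was checked for a library set apart from the other 5 on the log2(CPM + 0.25) scale (Dixon's ratio above its 95% critical value; the ratio depends on this scale, and CPM itself was not used), 32 groups in all, and 6 had one. Chance flags about 1 in 20 groups. ENSBTAG00000054947 was at 0.17 CPM in the fertile LM1262, against 31 to 68.8 CPM in the other 5, and at 0.287 CPM in the subfertile LM1313, against 22.2 to 72.4 CPM. ENSBTAG00000031825 was at 0 in LM1262, against 18.4 to 48.4 CPM in the other fertile heifers. ENSBTAG00000036061 was at 33.1 CPM in LM1247 and at 17.8 CPM in LM1265, with 0 counts in all other libraries of both groups. ENSBTAG00000054128 was at 32.3 CPM in LM1247 and at 0 in the other fertile heifers. The rule for members favours such values, so these results describe single heifers.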

How the results depend on the processing

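The number of members depended on both limits, most on the upper one: 112 genes with a highest CPM of 5 or more and 18 with 20 or more, against 37. With the lower limit at 0.1 CPM there were 25 members, and at 0.5 CPM there were 53. Leaving out each library in turn left 30 (without LM1330) to 37. At an r of 0.9, 6 members were in shared sets against 15. Calls over all genes (182) rose to 624 of 19434 (3.21%) without the count filter, where 7 of 37 members were called against 2 of 31. Leaving out each library gave 118 (0.896%, without LM1330) to 365 (2.77%, without LM1244) calls over all genes. Among members, 1 was called without LM1330 (of 31), LM1246 (of 32) or LM1251 (of 31), beside 0.896%, 1.45% and 1.53% of all genes. Without LM1265, 4 of 32 were called (ENSBTAG00000019018, ENSBTAG00000031825, ENSBTAG00000052270 and ENSBTAG00000054008), beside 1.86% of all genes. ENSBTAG00000019018 was called higher in subfertile heifers without LM1246, ENSBTAG00000048950 without LM1259 and AXL without LM1313. A filter that ignores the fertility groups needs a gene above its count limit in all 12 libraries (136 of 11568 genes called). Each member was at 0.25 CPM or less in at least 1 library, so that this filter tested no member followed from the rule. Fisher's exact test of libraries above 1 CPM gave 0 members against 1 by the permutation test. ENSBTAG00000048577 kept its call in 5 of the 12 fits without 1 library; the fits without a subfertile library lost it at -2.26 to -2.77 and the one without LM1330 at -0.47. It was not called by DESeq2 (-2.54) or with the reproductive tract score in the model (-2.41). ADAMDEC1 kept its call in 6 of the 12. Its call was lost at 0.91 without LM1265 and at 1.79 to 2.09 without LM1244, LM1247, LM1298, LM1330 or LM1246. DESeq2 called LRATD1 (-2.17) and F2RL3 (-1.16), and the model with the tract score called ENSBTAG00000004982 (1.8). By edgeR, F2RL3 (-1.15) was at -0.68 without LM1330 and -1.36, called, without LM1244, LRATD1 (-2.15) at -1.27 without LM1247, and ENSBTAG00000004982 (1.46) at 2.36, called, without LM1247. No direction reversed in these alternatives for the 5 members refitted. The cause of these changes was not tested. The limit of an off state was worth 3.5 to 5.32 reads depending on the library's depth, and a count of 0 allows up to 3 reads. No paired analysis was possible because the replicate numbers were given in accession order and pair no heifers.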
